A study of Mus musculus with 9 samples.

Results

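The 9 genes described here encode chains of the epithelial basement membrane and of the receptors that hold cells to it. They are the laminin chains Lama3, Lamb3 and Lama5, the collagen IV chains Col4a1 and Col4a2, and the integrin chains Itga2, Itga3, Itga6 and Itgb4. They were chosen by name, and all 9 were found among the 23799 genes of the deposited table. Basement membranes are sheets of extracellular matrix under epithelia and around vessels, built on a laminin network and a collagen IV network. Laminin-332 is a trimer that holds the chains encoded by Lama3 and Lamb3, and is the laminin that epithelial cells lay down at their attachment sites. Carcinoma cells bind it through the integrins that pair the Itga3 chain with Itgb1 and the Itga6 chain with Itgb4, and the pair of Itga6 and Itgb4 is the core receptor of hemidesmosomes.

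The 9 RNA-sequencing libraries were made from mouse tumour cells sorted by fluorescence, in 2 carcinoma models. The pancreatic ductal adenocarcinoma (PDAC) model gave YFP-positive cells of 2 liver metastases (numbers 1 and 5), 1 lung metastasis (number 1) and 2 primary tumours (numbers 1 and 5). The breast carcinoma (BC) model gave GFP-positive cells of 2 lung metastases (numbers 4 and 6) and 2 primary tumours (numbers 1 and 5). The comparisons ask how the members differ between metastasis and primary tumour within each model, and between the models. All PDAC libraries carry the alleles p53F/+ and KrasL/+, the driver p48-Cre, which acts in the pancreas, and the reporter ROSA-LSL-YFP, which marks recombined cells and their descendants. PDAC number 1 carries SIRT6F/F in addition and was taken at 25.67 weeks. PDAC number 5 lacks it in its label and was taken at 28.95 weeks, so that genotype and age cannot be told apart from the number. All BC libraries were labelled 4T1-eGFP derived, from a single mouse mammary carcinoma line, and were taken at 28 days. Both models were labelled orthotopic, and normal epithelium was not analysed here.

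The values are RPKM, which divide a gene's reads by its length and by a total for the library, so levels can be set side by side between genes. The PDAC lung metastasis was the shallowest library, with an estimated 21300000 reads on genes and 9530 genes above 0, and BC primary 5 the deepest, with 128000000 reads and 20478 genes. PDAC primary 5 and BC lung metastasis 6 listed 10410 and 10938 genes, the fewest after the PDAC lung metastasis. In PDAC primary 5 the housekeeping genes Sdha and Tbp were at 0.0247 and 0.138 RPKM, so a value of 0 is given only as listed at 0. The summed RPKM of 8 carcinoma epithelium markers was 6680 and 255 in PDAC liver metastases 1 and 5, 132 in the PDAC lung metastasis, and 2230 and 16600 in PDAC primary tumours 1 and 5. It was 4160 and 5800 in BC lung metastases 4 and 6, and 5580 and 2960 in BC primary tumours 1 and 5. In the PDAC lung metastasis the adherens junction gene Cdh1, a defining epithelial marker, was listed at 0, and 7 lung epithelium markers summed to 36000 RPKM. Cdh1 was also listed at 0 in BC lung metastasis 6, where 7 of the 8 epithelial markers were at 1 RPKM or more.

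Lama3 and Lamb3 stood high in 1 library, PDAC primary 5. Lama3, the alpha chain that carries the integrin-binding end of laminin-332, was at 0.00549 and 0.123 RPKM in PDAC liver metastases 1 and 5, listed at 0 in the PDAC lung metastasis, and at 0.141 and 20.4 RPKM in PDAC primary tumours 1 and 5. In the BC model it was at 0.179 RPKM in lung metastasis 4, listed at 0 in lung metastasis 6, and at 0.12 and 0.204 RPKM in primary tumours 1 and 5. PDAC primary 5 was thus 100-fold above the next library, BC primary 5, and the other 8 libraries lay together near 0. About 6870 reads stood behind the value in PDAC primary 5, against 1.02 in PDAC liver metastasis 1. Lama3 reached 1 RPKM in only 1 library and entered no test. A count of 3 reads corresponds to 0.0219 RPKM of Lama3 in the PDAC lung metastasis and to 0.00598 RPKM in BC lung metastasis 6, the libraries where it was listed at 0, counting error only.

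Lamb3, the beta chain found in no other laminin trimer, was at 0.225 and 0.498 RPKM in PDAC liver metastases 1 and 5, 0.0179 RPKM in the PDAC lung metastasis, and 0.657 and 79.8 RPKM in PDAC primary tumours 1 and 5. It was at 1.58 RPKM in BC lung metastasis 4, listed at 0 in BC lung metastasis 6, and at 9.48 and 5.36 RPKM in BC primary tumours 1 and 5. In both models the metastases lay below every primary tumour of the same model, and within the PDAC primary tumours number 5 was far above number 1.

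Lama3 and Lamb3 chains join in equal parts in the protein, and their RPKM values were far from equal. Exonic lengths were 10745 bases for Lama3 and 6612 for Lamb3. Which transcript forms were made was not tested, and a ratio of RPKM depends on them. The ratio of Lamb3 to Lama3 was 3.91 in PDAC primary 5, 4.66 in PDAC primary 1 and 4.06 in PDAC liver metastasis 5, while it was 8.82 in BC lung metastasis 4, 79.0 and 26.3 in BC primary tumours 1 and 5, and 41.0 in PDAC liver metastasis 1, where Lama3 rested on about 1 read.

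**Figure D1:**
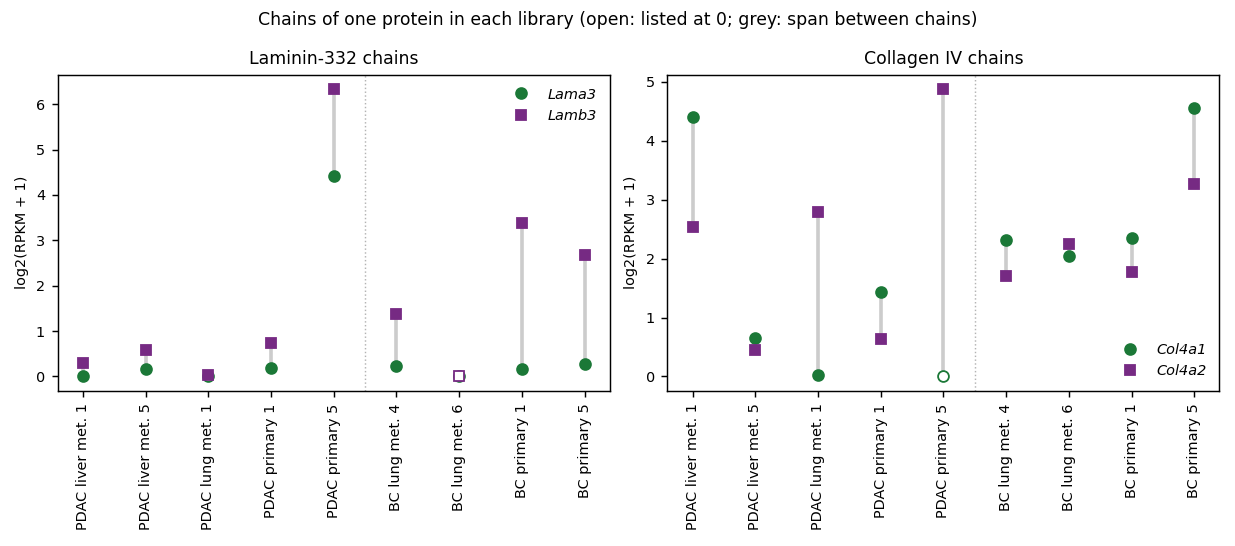
Level of each chain as log2(RPKM + 1), by library, for the laminin-332 chains Lama3 and Lamb3 (left) and the collagen IV chains Col4a1 and Col4a2 (right). Open symbols are values listed at 0 and grey bars span the chains of a protein; both laminin chains are high only in PDAC primary 5, where Col4a1 is listed at 0 and Col4a2 is at 28.5 RPKM.

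Lama5, the alpha chain of the laminins that most adult epithelia and vessels carry, was more even. It was at 5.08 and 0.292 RPKM in PDAC liver metastases 1 and 5, 5.69 RPKM in the PDAC lung metastasis, and 1.17 and 15.8 RPKM in PDAC primary tumours 1 and 5. In the BC model it was at 10.6 and 11.6 RPKM in lung metastases 4 and 6 and at 6.93 and 26.8 RPKM in primary tumours 1 and 5. Metastases and primary tumours overlapped in both models. Lama5 was the only member besides Col4a2 above 1 RPKM in the PDAC lung metastasis, the library in which the 7 endothelial markers summed to 612 RPKM, with sums of 0.00891 to 40.5 RPKM in the other 8. Lamb2, a beta chain that pairs with Lama5, was at 20.5 RPKM there, above the 0.312 to 10.3 RPKM of the other libraries; Lamb2 was chosen after its values were seen, and the part of endothelial cells in these levels was not tested.

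Col4a1 and Col4a2 encode the chains of the common collagen IV trimer, which takes 2 Col4a1 chains for each Col4a2 chain. Col4a1 was at 20.3 and 0.581 RPKM in PDAC liver metastases 1 and 5, 0.023 RPKM in the PDAC lung metastasis, 1.69 RPKM in PDAC primary 1 and listed at 0 in PDAC primary 5. In the BC model it was at 3.96 and 3.13 RPKM in lung metastases 4 and 6 and at 4.13 and 22.7 RPKM in primary tumours 1 and 5. It was highest in BC primary 5 and PDAC liver metastasis 1, and the BC metastases lay below the BC primary tumours. Col4a2 was at 4.8 and 0.37 RPKM in PDAC liver metastases 1 and 5, 5.94 RPKM in the PDAC lung metastasis, and 0.562 and 28.5 RPKM in PDAC primary tumours 1 and 5. Col4a2 was at 2.27 and 3.74 RPKM in the BC lung metastases 4 and 6 and at 2.4 and 8.64 RPKM in BC primary tumours 1 and 5. Unlike Col4a1 it was highest in PDAC primary 5, and its metastases and primary tumours overlapped in both models.

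The pair lie head to head on opposite strands, and in RefSeq (GRCm38.p6) their starts overlap by 22 bases. This stretch, chr8:11312805-11312826, is shown on the strand of Col4a2 because both transcripts begin within it: Col4a2 starts at its first base and Col4a1, read on the other strand, at its last.
Col4a1 and Col4a2 shared start: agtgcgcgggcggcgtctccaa
The ratio of Col4a1 to Col4a2 split the libraries. It was 4.23 and 1.57 in PDAC liver metastases 1 and 5, 3.01 in PDAC primary 1, 1.75 and 0.838 in BC lung metastases 4 and 6, and 1.72 and 2.62 in BC primary tumours 1 and 5. In the PDAC lung metastasis it was 0.00387, with about 2.19 reads of Col4a1 against 502 reads of Col4a2, and in PDAC primary 5 about 5920 reads of Col4a2 stood beside no read of Col4a1. A count of 3 reads of Col4a1 corresponds to 0.0128 RPKM in PDAC primary 5, counting error only. These are 2 of the 3 libraries with the fewest genes. The library preparation does not mark strand, so reads within the 22 shared bases cannot be assigned to either gene. Exonic lengths are 7464 bases for Col4a1 and 6619 for Col4a2.

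Itga3, the alpha chain that pairs with Itgb1 to bind laminin-332 and the laminins with Lama5, was the highest integrin alpha chain of the set in every BC library. It was at 12.3 and 0.669 RPKM in PDAC liver metastases 1 and 5, 0.0548 RPKM in the PDAC lung metastasis, and 7.96 and 22.1 RPKM in PDAC primary tumours 1 and 5. Itga3 was at 59.2 and 37.8 RPKM in the BC lung metastases 4 and 6 and at 94.0 and 121 RPKM in BC primary tumours 1 and 5. All 5 PDAC libraries lay below all 4 BC libraries, in the metastases as in the primary tumours, and the BC metastases lay below the BC primary tumours. Its partner Itgb1, the beta chain shared by many integrins, was at 28.9 and 18.7 RPKM in PDAC liver metastases 1 and 5, 26.2 RPKM in the PDAC lung metastasis, and 16.2 and 63.4 RPKM in PDAC primary tumours 1 and 5. Itgb1 was at 61.9 and 30.6 RPKM in the BC lung metastases 4 and 6 and at 194 and 161 RPKM in BC primary tumours 1 and 5. Only PDAC primary 5 reached into the range of the BC libraries, and in the PDAC lung metastasis Itgb1 was present where Itga3 rested on about 4 reads.

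The bases before the Itga3 start are shown because Itga3 was the member whose level separated the models. The 250 bases before its first listed RefSeq start (GRCm38.p6, chr11:95076715-95076964, minus strand, 5′ to 3′) hold 3 GC boxes, GGGCGG on either strand, in capitals.
Itga3: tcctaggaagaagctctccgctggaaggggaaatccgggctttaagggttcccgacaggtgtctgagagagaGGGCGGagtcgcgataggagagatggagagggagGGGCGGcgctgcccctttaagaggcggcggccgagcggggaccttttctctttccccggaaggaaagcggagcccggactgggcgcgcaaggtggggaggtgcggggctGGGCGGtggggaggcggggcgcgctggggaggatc
A GC box was found in 32.7% of 32851 mouse promoter windows of this length, so the motif is a common one. None of the other letters searched on both strands was in this window: the AP-1 motif TGAGTCA or TGACTCA (in 4.46% of windows), CCAAT (33.8%), TATAAA (12.4%) and the grainyhead motif AACCNGTT (1.79%).

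Itga6 and Itgb4 form the hemidesmosomal laminin receptor. Itga6 was at 0.16 and 0.722 RPKM in PDAC liver metastases 1 and 5, 0.00867 RPKM in the PDAC lung metastasis, and 0.96 and 12.1 RPKM in PDAC primary tumours 1 and 5. The BC values of Itga6 were 4.06 and 3.41 RPKM in lung metastases 4 and 6 and 5.46 and 11.6 RPKM in primary tumours 1 and 5. In both models every metastasis lay below every primary tumour. Itgb4 was at 0.214 and 0.513 RPKM in PDAC liver metastases 1 and 5, listed at 0 in the PDAC lung metastasis, and at 1.08 and 19.7 RPKM in PDAC primary tumours 1 and 5. It was at 18.5 and 21 RPKM in the BC lung metastases 4 and 6 and at 12.1 and 35.2 RPKM in BC primary tumours 1 and 5. Itgb4 metastases lay below the primary tumours in the PDAC model and between the primary tumours in the BC model. The ratio of Itgb4 to Itga6 was 0.711 to 1.63 in the 4 PDAC libraries where both were above 0, against 2.21 to 6.15 in the 4 BC libraries.

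Itga2, the alpha chain of the collagen receptor that also binds laminins, had the lowest levels of the 4 integrin chains in most libraries. It was listed at 0 in PDAC liver metastasis 1, the PDAC lung metastasis and PDAC primary 1, and was at 0.157 RPKM in PDAC liver metastasis 5 and 14.7 RPKM in PDAC primary 5. In BC cells Itga2 was at 0.856 RPKM in lung metastasis 4, listed at 0 in lung metastasis 6, and at 2.57 and 2.38 RPKM in primary tumours 1 and 5. Its libraries ran in nearly the order of Lamb3, with PDAC primary 5 highest and the BC primary tumours next.

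The bases before the starts of Lamb3 and Itga2 are shown because this pair of members varied most alike over the libraries. The windows are the 250 bases before the RefSeq starts (GRCm38.p6, chr1:193301744-193301993, plus strand, for the first listed start of Lamb3, and chr13:114932101-114932350, minus strand, for Itga2), each 5′ to 3′.
Lamb3: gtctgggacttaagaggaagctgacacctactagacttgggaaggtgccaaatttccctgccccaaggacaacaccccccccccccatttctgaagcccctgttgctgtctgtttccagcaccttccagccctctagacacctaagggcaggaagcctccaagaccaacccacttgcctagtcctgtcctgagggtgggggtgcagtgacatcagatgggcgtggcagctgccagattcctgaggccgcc
Itga2: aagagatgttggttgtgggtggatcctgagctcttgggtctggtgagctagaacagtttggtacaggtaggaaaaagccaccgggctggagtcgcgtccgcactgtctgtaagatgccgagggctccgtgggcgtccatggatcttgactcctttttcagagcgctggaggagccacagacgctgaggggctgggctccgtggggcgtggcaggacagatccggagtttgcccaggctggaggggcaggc
Neither window held any of the 5 motifs searched, which says only that these letters are not in these bases. RefSeq promoter windows were matched for 6 of the 9 members.

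**Figure D2:**
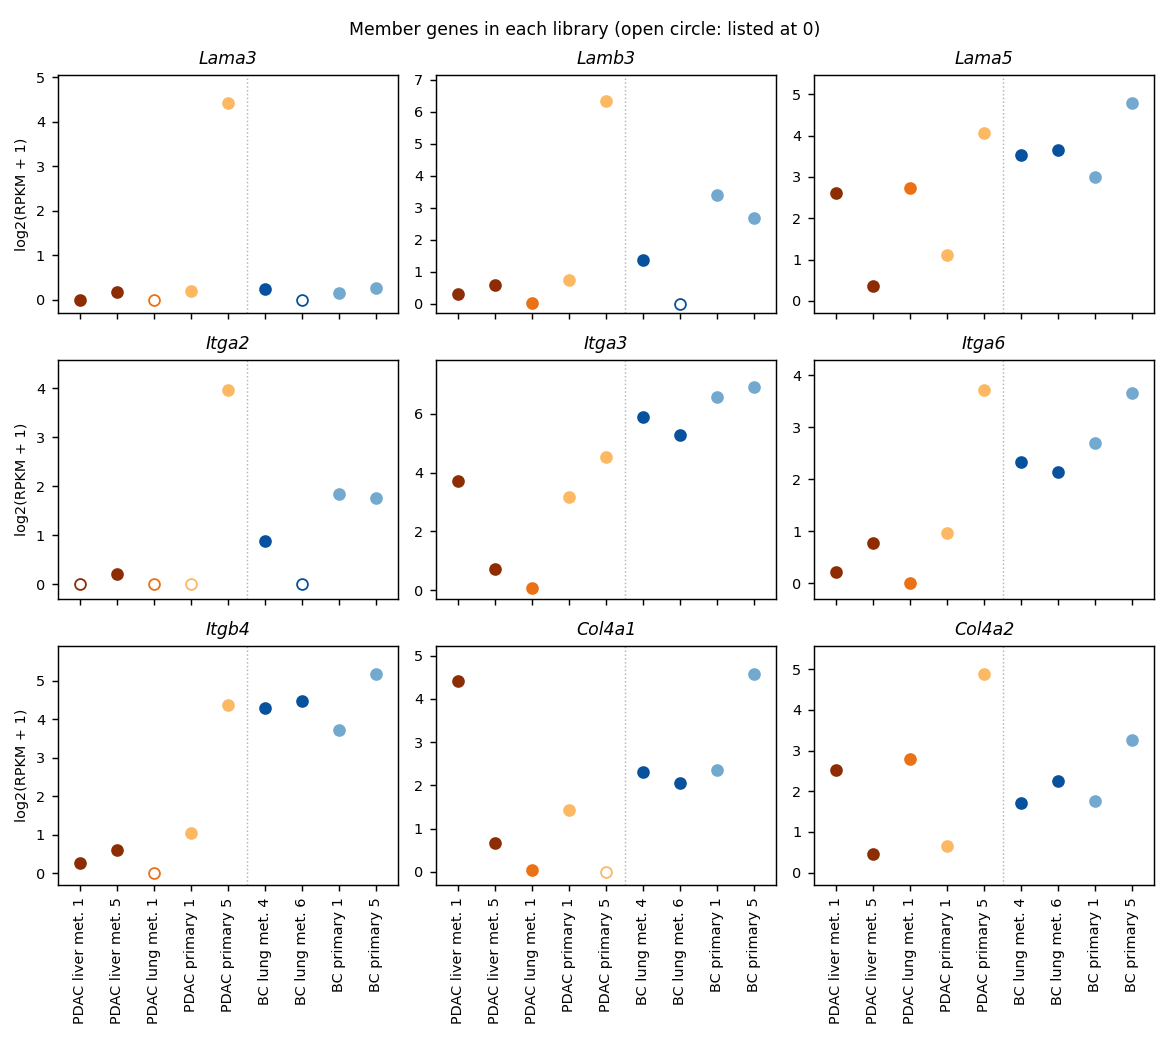
Level of each member as log2(RPKM + 1) in each of the 9 libraries, PDAC left of the dotted line and BC right of it. Open circles are values listed at 0; Lama3, Lamb3 and Itga2 peak in PDAC primary 5, and Itga3 is higher in all 4 BC libraries than in any PDAC library.

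Between BC lung metastases and BC primary tumours, the 8 members that could be tested all had negative log2 differences, and none passed the test. The largest differences were those of Lamb3 (-2.35 ± 1.57, SE), Itga2 (-1.35 ± 1.12), Col4a1 (-1.28 ± 1.39) and Itga3 (-1.16 ± 1.15), on log2(RPKM + 1), a scale that understates the change of low genes. In limma with Benjamini-Hochberg adjustment over 12832 genes these 4 had an adjusted p of 0.974, the smallest of any gene in this comparison. Over all genes 0 of 12832 (0%) were called and 265 had an unadjusted p under 0.05, 152 of them lower (1.18%), none a member. For 5 of the 8 members, Lamb3, Itga2, Itga3, Itga6 and Col4a1, both metastases lay below both primary tumours, as did those of 27% of all genes. The median of the members was -1.04 against -0.29 over all genes, of which 63.1% were below 0. Itgb1, the partner of Itga3, had a log2 difference of -2.00 ± 0.83 (unadjusted p = 0.0362, adjusted p = 0.974). Without BC primary 5 the members' median was -0.32 and 3 of 8 members were positive. The epithelial markers were 4 higher and 4 lower by sign in the BC metastases, while 3 of 7 neutrophil markers and 2 of 5 tested lung epithelium markers were higher at an unadjusted p under 0.05. By sign all 7 neutrophil markers and all 5 lung epithelium markers were higher, and 4 of each list did not overlap. The part of other cells was not tested, and in bulk RNA fewer cells of a type and less RNA per cell cannot be told apart.

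Between PDAC liver metastases and PDAC primary tumours, 7 of the 8 members had negative log2 differences and Col4a1 a positive one, and none passed the test. Lamb3 differed by -3.09 ± 1.57 (adjusted p = 0.834 in limma), Itgb4 by -2.28 ± 1.30, Itga2 by -1.88 ± 1.12 and Itga6 by -1.84 ± 1.13, and Col4a1 by 1.82 ± 1.39 (adjusted p = 0.883). Of all genes 1 (0.00779%) was called, and 821 had an unadjusted p under 0.05, 193 of them lower (1.5%), with no member among them. The liver metastases did not overlap the primary tumours, and lay lower, for 3 of the 8 members (Lamb3, Itga6 and Itgb4), against 10.2% of all genes. The members' median was -1.73, against 0.08 over all genes, of which 46.1% were below 0.

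These values moved with the primary tumour left out. Without PDAC primary 5 the members' median was -0.09, 4 members were positive and 4 negative, and Lamb3 differed by -0.29. Without PDAC primary 1, the primary group was PDAC primary 5 alone, where Lamb3 and Itga2 peaked, and they differed by -5.90 and -3.87. Without PDAC liver metastasis 1, Col4a1 differed by -0.05 in place of 1.82. All 8 epithelial markers had lower values in the liver metastases by sign, 1 of them at an unadjusted p under 0.05. Higher at an unadjusted p under 0.05 were 6 of 7 hepatocyte, all 6 erythroid, 6 of 7 macrophage, 4 of 7 neutrophil and 3 of 4 tested platelet markers. No lymphocyte and plasma cell marker was higher at that p. These markers summed to 6180 and 10100 RPKM in liver metastases 1 and 5, and 32200 and 2.02 RPKM in primary tumours 1 and 5. The neutrophil markers summed to 8730 and 216000 RPKM in these liver metastases, and 1260 and 367 RPKM in these primary tumours. The 1 gene called in this comparison was a hepatocyte marker. The part of all these cells in the members' values was not tested.

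The single PDAC lung metastasis, an unreplicated group whose spread was taken from the other groups, had lower values than the PDAC primary tumours for 6 of the 8 members. Itga3 differed by -3.77 ± 1.41 (unadjusted p = 0.0227, adjusted p = 0.273 in limma), Lamb3 by -3.51 ± 1.92 (adjusted p = 0.476), Itgb4 by -2.72 ± 1.59 and Itga6 by -2.33 ± 1.38. No member was among the 75 genes called (0.584%). Itga3 was the only member among the 1023 genes (7.97%) lower at an unadjusted p under 0.05. The lung metastasis lay below both primary tumours for 4 of 8 members (Lamb3, Itga3, Itga6 and Itgb4), against 34.4% of all genes. By sign 64.7% of all genes were lower in this library. Lama5 and Col4a2 differed by 0.15 and 0.03, and by -0.05 and -0.16 when values were rescaled without haemoglobin, and Col4a1 by -0.68, or 0.58 under quantile scaling. Without PDAC primary 1, Lamb3 differed by -6.31 and Itga2 by -3.97, and without PDAC primary 5 Itga2 differed by 0. With either primary tumour left out this comparison sets 1 library against 1, with a spread taken from the other groups. Without PDAC primary 1 it sets number 1 (SIRT6F/F, 25.67 weeks) against number 5, so that site, mouse, genotype and age cannot be told apart in those differences. All 8 epithelial markers were below both primary tumours (median -5.50), as were 6 of 8 housekeeping genes (median -0.78, against -0.50 over all genes). All 6 erythroid and all 6 tested endothelial markers were above both, with medians of 6.42 and 3.22. Of 5 tested lung epithelium markers 4 were above both and 1 was lower by sign (median 4.39). The part of all these cells in the members' values was not tested.

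Over both models together, with the model as a covariate, all 8 tested members were lower in metastases by sign and none passed the test. The fit counted the PDAC libraries as independent, with no term for the mouse, so its p-values and intervals may be too small or too large. Lamb3 differed by -2.83 ± 0.99 (95% interval -4.96 to -0.69, unadjusted p = 0.0134) and Itga2 by -1.66 ± 0.70 (unadjusted p = 0.0344), both with an adjusted p of 0.853 in limma. They were the 2 members among 347 genes (2.7%) lower at an unadjusted p under 0.05, in a comparison with 1 gene called (0.00779%). Itga3 (-1.80 ± 0.86), Itga6 (-1.52 ± 0.75) and Itgb4 (-1.35 ± 0.91) followed, and Col4a1 was at -0.05 ± 1.01. The sign of Col4a1 turned with quantile scaling (0.23). Among all genes 59.1% were below 0. The 8 epithelial markers were also all lower in metastases by sign, with a median of -1.60, and their part in the members' values was not tested. For no member did all 5 metastases lie below all 4 primary tumours, which was so for 0.538% of all genes. Without the 3 libraries with the fewest genes, chosen after seeing the data, the members' median moved to -0.39 against -1.44 with all libraries, with 6 of 8 negative.

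The change at the metastatic site was also compared between the models, as the PDAC liver effect minus the BC lung effect, so that organ and model are joined in it. No member and no gene was called (0%; smallest adjusted p = 0.813 in limma), and 530 genes had an unadjusted p under 0.05. Col4a1 had the largest difference of effects among the members (3.11 ± 1.96, adjusted p = 0.874), followed by Itgb4 (-2.21 ± 1.83, adjusted p = 0.874). Both kept their sign in 17 alternatives, from 1.23 without PDAC liver metastasis 1 to 4.98 without PDAC liver metastasis 5 for Col4a1. Itgb4 ran from -3.87 without PDAC primary 1 to -0.47 without the 3 libraries with the fewest genes, and was at -0.55 without PDAC primary 5. The members' median was -0.74 with 7 of 8 negative, and without PDAC primary 5 it turned to 1.03 with 7 of 8 positive. Without the 3 libraries with the fewest genes, chosen after seeing the data, it was 0.87 with 6 of 8 positive. With all libraries, 7 of the 8 epithelial markers were negative and 1 positive, with a median of -2.85, and their part was not tested.

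**Figure D3:**
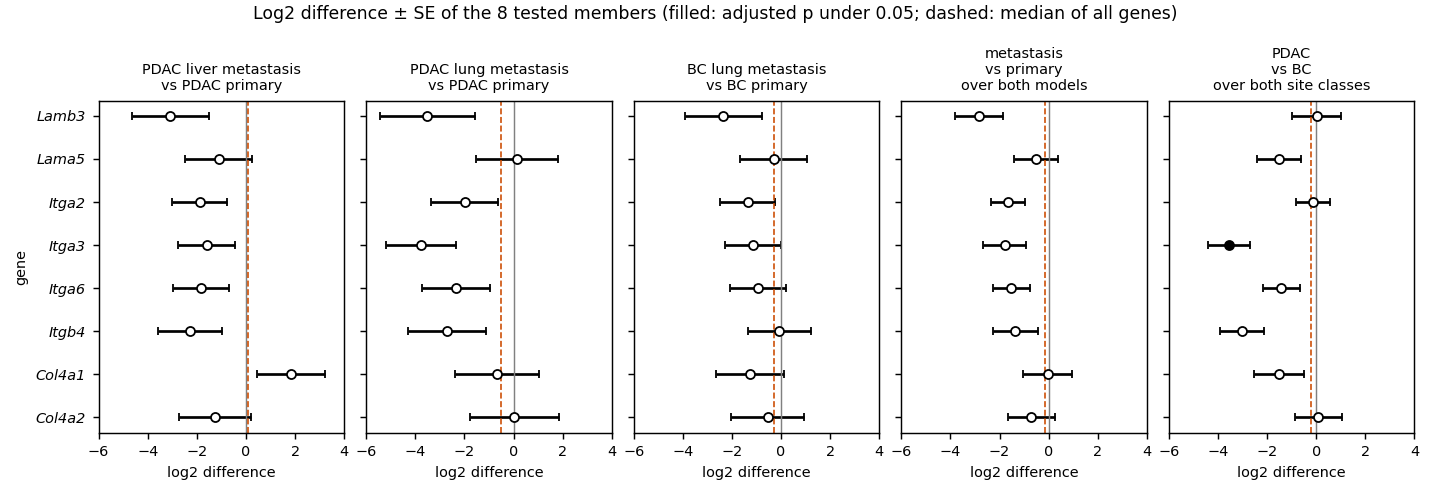
Log2 difference with its standard error (x axis) for the 8 tested members in 5 comparisons; the filled point is the member called at an adjusted p under 0.05 and the dashed line is the median of all genes. Lamb3 lies below 0 in each of the 4 metastasis comparisons, and Itga3 is the member called lower in PDAC than in BC.

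Between the models, with the site class as a covariate, Itga3 was lower in PDAC than in BC. Its log2 difference was -3.54 ± 0.86 (95% interval -5.40 to -1.69, adjusted p = 0.0453 in limma), and 5 of 5 PDAC libraries lay below 4 of 4 BC libraries. By their numbers the 5 PDAC libraries were taken to come from 2 mice, 3 of them from number 1, while the fit counted them as independent with no term for the mouse, so this p may be too small. Itga3 was 1 of 8 tested members called, in a comparison that called 381 of 12832 genes (2.97%). It was also the only member whose libraries did not overlap, which held for 6.23% of all genes with PDAC lower. The direction held in all 16 alternatives, with an adjusted p of 0.0181 to 0.194, and the call was kept in 7 of them. It was lost with a pseudocount of 0.1 (adjusted p = 0.127) and without the filter on low values (0.123). It was also lost when PDAC liver metastasis 5 (adjusted p = 0.0829), the PDAC lung metastasis (0.0533), PDAC primary 1 (0.0907), BC lung metastasis 4 (0.194) or 6 (0.0797), or BC primary 1 (0.115) or 5 (0.141) was left out. Itga3 kept its call when values were rescaled without haemoglobin genes (-3.93, adjusted p = 0.0222), which made up 0.0582 to 38.9% of the summed RPKM in PDAC libraries and 0.00607 to 0.107% in BC libraries. Of the 8 housekeeping genes 7 were lower and 1 higher in PDAC by sign (median -0.51, against -0.21 over all genes), and 1 was called lower. Of the 8 epithelial markers none was called between the models, with 3 higher and 5 lower in PDAC by sign. Markers of other cells were called higher in PDAC, with 6 of 6 erythroid, 2 of 7 macrophage, 1 of 7 lymphocyte and plasma cell and 1 of 5 lung epithelium markers. All 7 lymphocyte and plasma cell markers were higher by sign, with a median of 4.33, as were all 7 neutrophil and all 7 hepatocyte markers, none of them called. The part of these cells in the Itga3 difference was not tested.

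By sign 6 of the 8 members were lower in PDAC, as were 57.5% of all genes, and Itga3 and Itgb4 were lower at an unadjusted p under 0.05, as were 12.1% of all genes. Itgb4 was at -3.01 ± 0.91 (unadjusted p = 0.00555, adjusted p = 0.104 in limma), and PDAC primary 5 was the PDAC library within the BC range. Without PDAC primary 5 Itgb4 was called lower in PDAC (-3.83, adjusted p = 0.00841 in limma), among 818 genes called of 12614 tested, 326 of them lower. Itga6 (-1.42 ± 0.75), Lama5 (-1.51 ± 0.91) and Col4a1 (-1.51 ± 1.01) were lower in PDAC by sign with adjusted p of 0.314 to 0.418. Lamb3 (0.02, 95% interval -2.12 to 2.15), Itga2 (-0.12, -1.64 to 1.40) and Col4a2 (0.09, -1.99 to 2.16) had wide intervals around 0. Lamb3 and Col4a2 were negative when values were rescaled without haemoglobin (-0.31 and -0.26), and Itga2 was positive under quantile scaling (0.31). Itgb1, the partner of Itga3, differed by -1.55 ± 0.60 (unadjusted p = 0.0229, adjusted p = 0.186).

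The rest of the pathway was read from 7 lists with 67 genes in the table. The list of collagen IV folding, crosslinking and export held 9 tested genes, of which 2 passed the test between the models and 0 in the other comparisons. Serpinh1, the collagen chaperone HSP47, was lower in PDAC (-3.51 ± 0.72, adjusted p = 0.0207 in limma). Its levels were 39.7 and 2.74 RPKM in PDAC liver metastases 1 and 5, 6.37 RPKM in the PDAC lung metastasis, and 12.5 and 27.3 RPKM in PDAC primary tumours 1 and 5, against 199 and 90.6 RPKM in BC lung metastases 4 and 6 and 151 and 234 RPKM in BC primary tumours 1 and 5. All PDAC libraries lay below all BC libraries. Plod2, a lysyl hydroxylase that prepares collagens for crosslinking, was lower as well (-2.37 ± 0.59, adjusted p = 0.0498), at most 0.31 RPKM in the PDAC libraries and 1.01 to 12.0 RPKM in the BC libraries. By sign all 9 genes of the list were lower in PDAC, and their median was -1.97, against -0.21 over all genes; P4hb, the protein disulfide isomerase with the highest level of the list, differed by -0.13 ± 0.48.

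Among 7 tested laminin and collagen receptors outside the integrins, Ddr2, a receptor tyrosine kinase for collagen, was called lower in PDAC (-2.83 ± 0.58, adjusted p = 0.0203 in limma). Ddr2 was at 0 to 0.00979 RPKM in the 5 PDAC libraries and at 3.5 to 15.5 RPKM in the 4 BC libraries. The same list held Sdc1, a cell-surface proteoglycan and the gene with its highest mean level, which differed by -1.15 ± 0.76. All 6 tested fibroblast and pericyte markers were also lower in PDAC by sign (median -1.13), 2 of them at an unadjusted p under 0.05 and 2 with no overlap. Their summed level was 18 to 103 RPKM in PDAC libraries and 19.9 to 77.6 RPKM in BC libraries, and their part in the levels of Serpinh1, Plod2 and Ddr2 was not tested. The Ddr2 call was lost without PDAC primary 1 (adjusted p = 0.0683), BC lung metastasis 4 (0.0738) or BC primary 5 (0.0546). Serpinh1 lost its call without PDAC primary 1 (0.0519), BC lung metastasis 4 (0.108), BC primary 1 (0.0548) or BC primary 5 (0.0779), and Plod2 lost it when any 1 library other than BC lung metastasis 6 was left out (adjusted p up to 0.182). Without the filter on low values Serpinh1 (0.0850) and Plod2 (0.0913) were not called in limma, and Plod2 was not called with a filter at 5 RPKM (0.0826) or with plain moderation (0.0514).

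No gene of the other 5 lists was called in any comparison. Of 4 tested laminin chains besides the members, Lamb1 had the smallest p between the models (-2.78 ± 0.84, adjusted p = 0.104 in limma), at 0.00644 to 4.4 RPKM in PDAC libraries and 7.88 to 30.4 RPKM in BC libraries. Of 6 tested genes of the other collagen IV chains and the basement membrane core, Col7a1, the anchoring fibril collagen, had the smallest (-2.21 ± 0.70, adjusted p = 0.117), and Col18a1, a collagen of vessel and epithelial basement membranes, had the highest level. Of 4 tested hemidesmosome and tetraspanin partners, the basal keratin gene Krt14 had the smallest p (-3.15 ± 1.15, adjusted p = 0.161). Krt14 was at 51.4 RPKM in BC lung metastasis 4 and 0.0122 RPKM in BC lung metastasis 6, so the BC metastases stood far apart. Cd151, the tetraspanin that binds the laminin-binding integrins, had the highest level of that list and differed by -1.62 ± 0.67 (adjusted p = 0.206). Among 8 tested integrin chains and 12 adhesion complex genes, Itgb5, a beta chain of vitronectin receptors (-2.63 ± 0.83, adjusted p = 0.119), and Fermt2, the integrin activator kindlin-2 (-3.07 ± 0.91, adjusted p = 0.0958), had the smallest p, and Zyx, a focal adhesion protein, had the highest level of the adhesion genes (-0.60 ± 0.63).

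Summed over the members, the level was 43.1 and 3.92 RPKM in PDAC liver metastases 1 and 5, 11.7 RPKM in the PDAC lung metastasis, and 14.2 and 213 RPKM in PDAC primary tumours 1 and 5. In the BC model the sum was 101 and 80.6 RPKM in lung metastases 4 and 6, and 137 and 234 RPKM in primary tumours 1 and 5. As a percentage of the summed epithelial markers it was 0.646 and 1.54 in PDAC liver metastases 1 and 5, 8.86 in the PDAC lung metastasis, and 0.639 and 1.29 in PDAC primary tumours 1 and 5, against 2.43 and 1.39 in BC lung metastases 4 and 6 and 2.46 and 7.91 in BC primary tumours 1 and 5. PDAC primary 5, which had the laminin-332 peak, was thus close to BC lung metastasis 6 and PDAC liver metastasis 5 on this scale. In the PDAC lung metastasis the members' sum was mostly Lama5 (5.69 RPKM) and Col4a2 (5.94 RPKM). Every other member there was at most 0.0548 RPKM. Its percentage of 8.86 stands over only 132 RPKM of epithelial markers. Endothelial and lung epithelium markers there summed to 612 and 36000 RPKM, and their part was not tested.

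**Figure D4:**
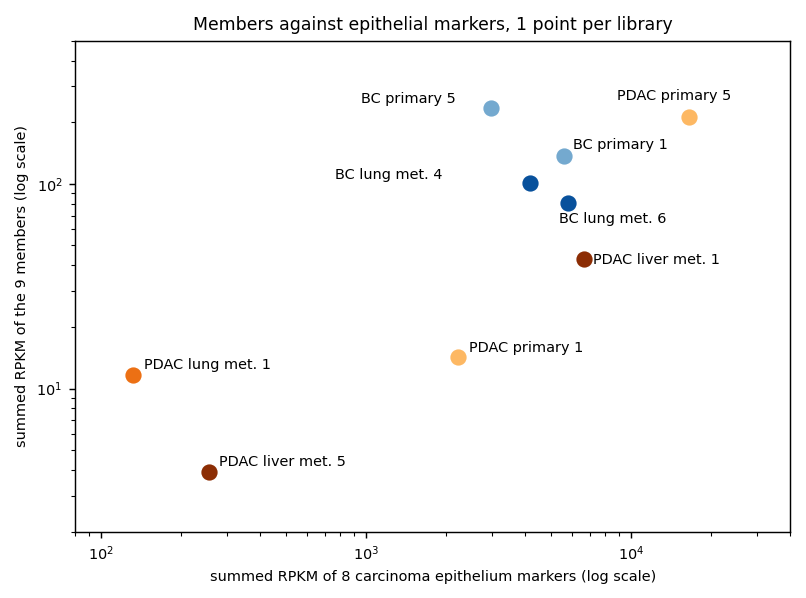
Summed RPKM of the 9 members (y axis, log scale) against the summed RPKM of 8 carcinoma epithelium markers (x axis, log scale), 1 point per library. The 4 BC libraries lie between 80.6 and 234 RPKM of members at 2960 to 5800 RPKM of markers, and the PDAC libraries spread over 132 to 16600 RPKM of markers.

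Across the 9 libraries the members fell into pairs that varied alike, given as a description because the points share the libraries' scaling and their content of epithelial cells. On log2(RPKM + 1), Pearson's r was 0.99 between Lamb3 and Itga2 and 0.97 without PDAC primary 5. It was 0.94 between Itga6 and Itgb4, which encode 1 receptor, and 0.96 without that library. Lama3 and Lamb3 had an r of 0.85 with PDAC primary 5 and 0.68 without it, and Itga3 and Itgb4 0.86 and 0.89. Itga3 and its partner Itgb1 had an r of 0.79. Col4a1 and Col4a2, the chains of 1 trimer, had an r of 0.00 with all libraries and 0.52 without PDAC primary 5.

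The genes most like the averaged standardized profile of the laminin-332 and receptor members (Lama3, Lamb3, Itga2, Itga3, Itga6 and Itgb4) were sought among 6451 tested genes with a mean of at least 5 RPKM. Over the 9 libraries Cuedc1 and Mpzl1 had a Pearson r of 0.949 with it, Abcd3 0.944, Lgr6 0.943 and Ephb4 0.942. Mpzl1, for example, was at 191 RPKM in PDAC primary 5, 20.4 to 84.0 RPKM in the BC libraries and 0.0664 to 5.78 RPKM in the other PDAC libraries. For the profile of Col4a1 and Col4a2 genes among the closest were Lsm12 (0.874), Eif4g1 (0.851), Dag1 (0.833) and AW555464 (0.829). Col4a1 and Col4a2 had an r of 0.00 with each other, so their average stands for neither gene alone. The genes named for both profiles were picked as the highest of 6451 values of r over 9 libraries. Their r is a description only, and was not computed without PDAC primary 5. Dag1 encodes dystroglycan, a laminin receptor, and was at 25.1 RPKM in BC primary 5. It was at 14.7 RPKM in PDAC primary 5, where Col4a1 was listed at 0. In the PDAC lung metastasis Dag1 was listed at 0, where Col4a2 was at 5.94 RPKM.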

How the data were processed

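RNA of at least 100 ng from sorted tumour cells entered SMART-seq v4 and Nextera XT libraries, per the labels' protocols, and mm9 is the build named, per the submitters' processing notes. What aligner, counter and annotation they used is not given in the sources used here. A single file was deposited by the authors, with 23799 genes, and its values were read as RPKM: it was named CPM, but its columns sum to 288171 to 992077, and low values multiplied by GENCODE M21 exonic lengths gave whole reads, within 0.02, for 62.8 to 74.3% of values, against 6.32 to 10.9% without lengths. Read numbers given here are such estimates, from a later build.

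Libraries were grouped by model and site in their labels. Genes reaching 1 RPKM in 2 or more of the 9 libraries, 12832 in all, were tested on log2(RPKM + 1) with limma 3.58.1 in R 4.3.3 (mean-variance trend, robust moderation, statmod 1.5.0), two-sided, with Benjamini-Hochberg adjustment over all of them and a call at an adjusted p under 0.05. Of the members, 8 passed and Lama3 did not. All groups shared 1 estimate of the spread, with 1 mean per group; the 2 comparisons over both models used site class and model. Simulated data, with independent noise and planted differences of 8 log2 units, were run only through the fit with 1 mean per group, for PDAC liver metastasis against PDAC primary. The fit over both models and libraries sharing a mouse were not simulated. The labels do not say that libraries of a BC group came from separate animals, so p-values rest on a spread between libraries that may be technical. PDAC libraries with the same number were taken to come from 1 mouse, because the design text calls metastases matched and the number shares an age and genotype label. Apart from the replicate block, no fit had a term for that number. The deviations of the number 1 libraries from the means of PDAC primary tumours and PDAC liver metastases correlated at -0.165 over the tested genes. BC groups share no number.

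The members and the gene lists were chosen with earlier results of these data known. The naming rule took all members, the chain partner Itgb1, and from each of 7 pathway lists the called genes, the gene with the highest mean and the gene with the smallest p; some genes it takes are not reported here. Alternatives changed the pseudocount (0.1), the filter (none, or 5 RPKM), the scaling, the moderation, the libraries fitted and the replicate block, and left out each library. Promoter bases are from RefSeq (GRCm38.p6), where Lama3, Itga6 and Itgb4 were not matched.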

Additional observations from a re-analysis of the deposited data

How the results depend on the processing

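With 1 or 2 libraries in a group, counts of called genes moved with single libraries, and the causes were not tested. Leaving out 1 library in turn gave 153 to 818 called genes for PDAC against BC (381 with all), with 233 without PDAC primary 1, 818 without PDAC primary 5, 153 without BC lung metastasis 4 or BC primary 5 and 164 without BC primary 1. It gave 0 to 1032 for PDAC liver metastasis (1 with all), 0 to 1547 for PDAC lung metastasis (75 with all), both highest without PDAC primary 1, 0 to 10 for metastasis over both models and 0 to 30 for the difference of effects. Called members ranged from 0 to 2 in PDAC against BC and in each PDAC metastasis comparison. A pseudocount of 0.1 gave 0 genes for PDAC liver, 0 over both models and 270 for PDAC lung; no filter gave 0, 0 and 251, and 207 for PDAC against BC; either left 0 members called there. A filter at 5 RPKM gave 3 genes over both models. Rescaling without haemoglobin gave 0 for PDAC liver and 0 over both models, and moved the median of all genes for PDAC against BC to -0.59, against -0.21 as deposited. Quantile scaling gave 0 for PDAC liver, 6 over both models and 161 for PDAC lung, and plain moderation gave 2, 0 and 0. Fitting only the compared groups gave 73 genes for BC and 0 for PDAC lung. With the replicate block, pairing PDAC libraries by number, 42 genes were called for PDAC liver and 16 for PDAC lung, none of them among the 5 members tested there; Lamb3, Itga2 and Itga6 fell below the filter in that fit. Without the 3 libraries with the fewest genes, chosen after seeing the data, 0 genes were called for PDAC liver, 0 over both models and 1145 for PDAC against BC, 2 of them members, and the PDAC lung comparison could not be made.

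No member log2 difference was called at its turned sign; Itga2 in PDAC liver and PDAC lung was called without PDAC primary 1, at the sign it had with all libraries. A pseudocount of 0.1 gave 0.16 for Col4a1 over both models, and -0.24 for Lamb3 and -0.23 for Col4a2 in PDAC against BC. Rescaling without haemoglobin gave -0.31 for Lamb3 and -0.26 for Col4a2 in PDAC against BC, and -0.16 for Col4a2 and -0.046 for Lama5 in PDAC lung. Quantile scaling gave 0.23 for Col4a1 over both models, 0.58 for Col4a1 in PDAC lung and 0.31 for Itga2 in PDAC against BC. Without the 3 libraries with the fewest genes, PDAC against BC gave -1.62 for Lamb3 and -1.04 for Col4a2, PDAC liver gave 0.85 for Col4a2, 0.10 for Itga2 and 0.37 for Lama5, and both models gave 0.021 for Col4a2 and 0.006 for Lama5. With 1 library left out, BC lung metastasis ranged from -1.29 to 0.21 for Col4a2, -0.80 to 0.67 for Itgb4 and -1.20 to 0.61 for Lama5. PDAC liver ranged from -0.054 to 3.70 for Col4a1, -3.39 to 0.85 for Col4a2, -3.87 to 0.10 for Itga2 and -2.58 to 0.37 for Lama5. PDAC lung ranged from -1.40 to 0.033 for Col4a1, -2.09 to 2.15 for Col4a2, -3.97 to 0 for Itga2 and -1.33 to 1.62 for Lama5. Both models ranged from -0.83 to 0.57 for Col4a1, -1.58 to 0.24 for Col4a2 and -1.10 to 0.17 for Lama5. PDAC against BC ranged from -0.70 to 0.81 for Col4a2, -0.88 to 0.54 for Itga2 and -1.07 to 0.93 for Lamb3.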

Other observations

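Some genes of the same pathway, chosen after their values were seen, stood out in 1 library only. In PDAC primary 5, where Lama3 and Lamb3 peaked, Itga7, an integrin alpha chain that binds laminins, was at 22.6 RPKM, and it was listed at 0 in 4 of the other libraries and at 0.0194 to 3.49 RPKM in the remaining 4. Fermt1, the epithelial kindlin that activates integrins, was at 185 RPKM in that library and at 0.0259 to 14.2 RPKM elsewhere, and the basal keratin gene Krt5 was at 26.3 RPKM there and at most 0.207 RPKM elsewhere. In the same library 6 of 7 endothelial markers and 5 of 8 fibroblast and pericyte markers were listed at 0, among only 10410 genes above 0. Macrophage markers summed to 629 RPKM there, against 259 to 571 RPKM in the BC libraries and 1950 to 9320 RPKM in the other PDAC libraries. Neutrophil, erythroid and hepatocyte markers summed to 367, 276 and 248 RPKM, and lymphocyte and plasma cell markers to 2.02 RPKM. In the other PDAC libraries neutrophil markers summed to 1260 to 216000 RPKM and erythroid markers to 61300 to 360000 RPKM. Hepatocyte markers summed to 1.23 to 2150 RPKM in those libraries, and lymphocyte and plasma cell markers to 3040 to 32200 RPKM.

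In the PDAC lung metastasis, Itga8, the alpha chain of the nephronectin receptor, was at 7.02 RPKM, against at most 0.0598 RPKM in the other 8 libraries. Npnt, which encodes nephronectin, was at 8.41 RPKM there, within the 0.175 to 43.9 RPKM of the other libraries. Of the members, 3 were listed at 0 in that library, and the fibroblast marker Dcn was at 103 RPKM while 6 of 8 fibroblast and pericyte markers were listed at 0. The part of lung stromal cells in these values was not tested.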
